A study of Mus musculus with 4 samples.

Results

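The genes described here are those of bone morphogenetic protein (BMP) and TGF-beta signalling together with the *Id* and *Msx* genes, compared between the GFP+ cells of heterozygous and homozygous *Prdm13* mutant mouse embryos. They are taken by a rule on gene symbols, and comprise 65 of the 24421 genes in the deposited table. The transcriptomes are of E11.5 neural tube cells sorted for GFP and sequenced in bulk. The control libraries came from *Prdm13GFP/+* embryos, which carry a GFP knock-in that disrupts 1 copy of *Prdm13*, and the mutant libraries came from *Prdm13GFP/GFP* embryos, in which both copies are disrupted. Each genotype had 2 libraries, and every library therefore carries the GFP allele, with no wild-type library among them. The 2 libraries of a genotype were made from 1 RNA pool of several embryos, so that all p-values given here measure the spread between libraries of a pool and not between embryos. GFP marks cells in which the *Prdm13* locus is or was recently active, in dorsal progenitors and the neurons they give rise to. In such bulk samples fewer cells of a type and less RNA per cell cannot be told apart.

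BMP and growth and differentiation factor (GDF) ligands, and the TGF-beta and activin ligands, bind pairs of type I and type II serine-threonine kinase receptors. The activated type I receptor phosphorylates receptor Smads, which join Smad4 and enter the nucleus, while Smad6 and Smad7 inhibit the pathway and secreted antagonists such as Noggin, Chordin and Follistatin hold ligands away from their receptors. In the dorsal neural tube these ligands are made by the roof plate and overlying ectoderm and help to pattern the dorsal progenitors. The Id proteins, which lack a DNA-binding domain and bind bHLH factors or their E protein partners, and the Msx homeodomain repressors are well known transcriptional targets of BMP signalling.

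The libraries held between 12437866 and 19761465 reads in genes, recovered from the deposited RPKM values (reads scaled to gene length and to library size), and the median difference between the libraries of a genotype was 0.08 on the log2 scale in either genotype. *Prdm13* itself stood at 120.4 ± 9.10 RPKM in the *Prdm13GFP/+* libraries and 317 ± 10.6 RPKM in the *Prdm13GFP/GFP* libraries (SD, n = 2), where reads from the disrupted allele are counted too. Of 6 genes of the dorsal *Prdm13* lineage, which check the sorted cells, all were tested, with summed levels of 551 and 609 RPKM in control and 260.4 and 271 RPKM in mutant libraries, and *Ptf1a* was called higher and *Pax2*, *Lhx1*, *Lhx5* and *Lbx1* lower. A gene was tested where its mean reached 1 RPKM in either genotype, and was called where limma gave an adjusted p under 0.05 with a fold change of at least 1.5. Of all 12046 genes tested, 440 (3.65%) were called higher and 322 (2.67%) lower in *Prdm13GFP/GFP* cells. The number called higher was 285 when the second *Prdm13GFP/GFP* library was left out.

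Of the 65 members, 34 were tested, and 9 of these were called, beside 6.33% of all genes tested. The 6 members called higher in *Prdm13GFP/GFP* cells were the 4 *Id* genes, *Fst* and *Inhbb*. *Inhbb* passed the filter only through its level in those cells, so a rise is what the filter would let through, and without it 5 were called higher. The 3 members called lower were *Msx1*, *Msx2* and *Gdf10*. Over the 34 tested members the median log2 fold change was 0.02, next to 0.01 over all genes tested, with 18 members higher and 16 lower. The members thus moved in both directions, and none of the 15 receptors and Smads tested was called by limma, although 5 had an unadjusted p under 0.05, nor was any called by limma voom on recovered reads. Groups did not overlap, meaning that both libraries of a genotype lay above both of the other, for 26 of the 34 tested members (76.5%) and for 62.1% of all genes tested.

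**Figure D1:**
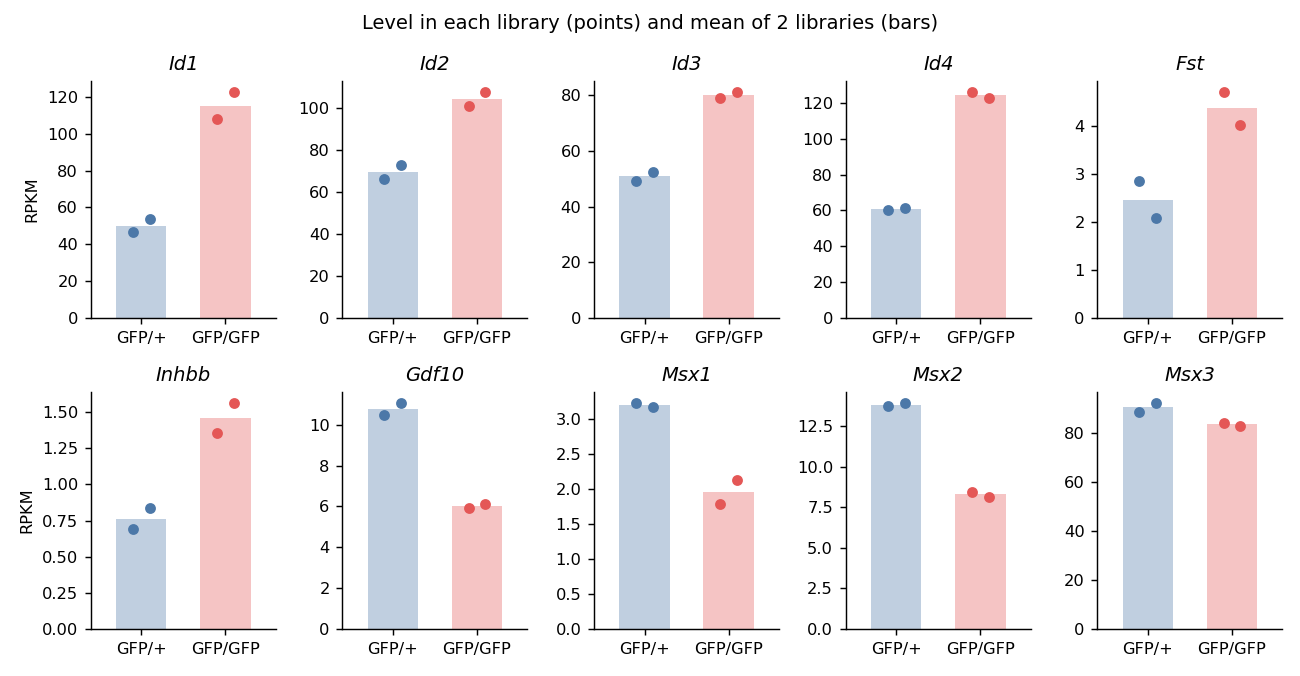
RPKM in each library for the 9 called members and for *Msx3*, which was not called. Each gene has 1 panel with its own axis from 0, in which points are libraries and bars are the mean of each genotype. The 4 *Id* genes, *Fst* and *Inhbb* lie higher in both *Prdm13GFP/GFP* libraries than in either *Prdm13GFP/+* library, and *Msx1*, *Msx2* and *Gdf10* lie lower.

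All 4 *Id* genes were higher in the homozygous cells, by 1.5-fold to 2.30-fold, and all 4 were among the most highly expressed members. *Id1* (gene ID 15901, chromosome 2 from 152736251 to 152737410 of GRCm38) was at 46.4 and 53.8 RPKM in the *Prdm13GFP/+* libraries and at 108 and 122 RPKM in the *Prdm13GFP/GFP* libraries. Both mutant libraries were far above both control libraries. The means were 50.1 ± 5.21 and 115 ± 10.2 RPKM (SD, n = 2), a log2 fold change of 1.20 (SE 0.0881, adjusted p = 0.000374). *Id1* had the greatest rise of the tested members. It encodes an inhibitor of bHLH factors that is widely used as a readout of BMP signalling.

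*Id4* (gene ID 15904, chromosome 13 from 48261116 to 48266028), which is expressed in neural progenitors, was at 60.02 and 61.3 RPKM in control libraries and at 126 and 122.7 RPKM in mutant libraries. The libraries of each genotype lay close together and the genotypes were well apart. Its log2 fold change was 1.03 (SE 0.0443, adjusted p = 3.3e-05), from 60.7 ± 0.917 to 124 ± 2.19 RPKM. In the *Prdm13GFP/+* libraries *Msx3* had the highest mean of the 65 members, and in the *Prdm13GFP/GFP* libraries *Id4* had it.

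*Id3* (gene ID 15903, chromosome 4 from 136143822 to 136145392) was at 49.2 and 52.5 RPKM in control libraries and at 79.1 and 81.0 RPKM in mutant libraries. Its groups did not overlap either, and the rise was smaller than for *Id1* and *Id4*. The means were 50.9 ± 2.32 and 80.0 ± 1.38 RPKM, with a log2 fold change of 0.65 (SE 0.0515, adjusted p = 0.000482). *Id2* (gene ID 15902, chromosome 12 from 25093799 to 25096092) was at 66.4 and 72.8 RPKM in control libraries and at 101 and 108 RPKM in mutant libraries. Its level was the highest of the *Id* genes in control cells and its rise was the smallest. From 69.6 ± 4.51 to 104 ± 4.45 RPKM, *Id2* changed by 0.59 on the log2 scale (SE 0.0608, adjusted p = 0.00157), which lies just inside the fold limit of 1.5. It fell short of that limit without the first control library (log2 fold change 0.52) or without the second mutant library (0.54), and in 6 of 15 alternatives in all was it called.

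Summed over the *Id* family, the level was 222 and 240.5 RPKM in the *Prdm13GFP/+* libraries and 414 and 434 RPKM in the *Prdm13GFP/GFP* libraries. The median log2 fold change of the 4 genes was 0.84. Lists of other genes of the cells moved beside them. Among 9 genes of neural progenitors, none was called higher by limma or by voom and 1 was called lower (*Sox1*). At an unadjusted p under 0.05, 4 of them were higher and 3 lower, while 3 passed the adjusted p as higher (*Sox3*, *Hes5* and *Notch1*) and 3 as lower (*Sox1*, *Sox2* and *Hes1*). The summed level of that list was 2219 and 2200.1 RPKM in control libraries and 2210.1 and 2292 RPKM in mutant libraries. Most of that sum came from *Vim*, with means of 932 RPKM in control and 967 RPKM in mutant libraries, and *Fabp7*, with 666 and 633 RPKM. Of 9 genes of differentiated neurons 3 were called higher and 1 lower, with a summed level of 1731 and 1778 RPKM against 2216 and 2306 RPKM. Most of this sum came from *Tubb3*, with means of 1040 RPKM in control and 1318 RPKM in mutant libraries. Each of 10 genes of dividing cells was lower in mutant cells, with a median log2 fold change of -0.15, and 5 of them passed the adjusted p (6 an unadjusted p under 0.05), although none was called by limma or by voom. The part of these lists in the rise of the *Id* genes was not tested.

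Of the *Msx* genes, which encode homeodomain repressors of the dorsal neural tube, *Msx1* and *Msx2* were called lower and *Msx3*, the most abundant, was not called. *Msx2* (gene ID 17702, chromosome 13 from 53466881 to 53472780) was at 13.7 and 13.9 RPKM in control libraries and at 8.45 and 8.12 RPKM in mutant libraries. Both mutant libraries were below both control libraries by a wide margin. The means of 13.8 ± 0.141 and 8.28 ± 0.236 RPKM gave a log2 fold change of -0.73 (SE 0.0602, adjusted p = 0.000563), 1.67-fold lower. *Msx1* (gene ID 17701, chromosome 5 from 37820491 to 37824585) was at 3.22 and 3.17 RPKM in control libraries and at 1.78 and 2.12 RPKM in mutant libraries. The groups did not overlap at this lower level, and the mutant libraries differed more between themselves than the control libraries did. Its log2 fold change was -0.69 (SE 0.131, adjusted p = 0.0149), from 3.19 ± 0.0399 to 1.95 ± 0.238 RPKM. This call was lost without the first control library (adjusted p = 0.0829), without the second (adjusted p = 0.0617) and without the first mutant library (adjusted p = 0.0662), with the same direction each time.

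*Msx3*, the *Msx* gene largely restricted to the dorsal neural tube, was at 88.5 and 92.0 RPKM in control libraries and at 84.0 and 82.6 RPKM in mutant libraries. The mutant libraries were lower, but by little. Its log2 fold change was -0.12 (SE 0.0456, adjusted p = 0.130), which did not pass. *Msx3* was over 6 times as abundant per length as *Msx2* in control cells, so that the summed level of the 3 *Msx* genes was 105 and 109 RPKM in control and 94.2 and 92.9 RPKM in mutant libraries. Roof plate cells also express *Msx1* and *Msx2*. Of 5 roof plate genes only *Wnt1* was tested, at 1.82 and 1.75 RPKM in control and 0.908 and 0.956 RPKM in mutant libraries (log2 fold change -0.87, adjusted p = 0.0202). It passed the filter only through the control libraries, so a fall is what the filter would let through. The means of *Lmx1a*, which defines the roof plate, were 0.0702 RPKM in control and 0.174 RPKM in mutant libraries. Those of *Wnt3a* were 0.357 and 0.456 RPKM and those of *Rspo3* 0.0114 and 0.0843 RPKM, all higher in mutant cells. *Rspo1*, the remaining gene of the list, was lower, with means of 0.245 and 0.0335 RPKM. None of these was tested on this scale, and their values rest on few reads. In control and then mutant libraries *Rspo3* had 0, 1, 3 and 3 reads and *Rspo1* 6, 7, 2 and 0. The summed level of the 5 was 2.51 and 2.43 RPKM in control and 1.56 and 1.80 RPKM in mutant libraries, most of it from *Wnt1*. The part of such cells in the *Msx* values was not tested.

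To show the stretches before the start sites of *Id* genes that rose together and of *Msx* genes that fell together, the 250 bases upstream of the annotated start are printed for each of them that has an entry in the RefSeq table used (GRCm38.p6). Sequences read 5′ to 3′ on the gene's strand, and the last base is next to the start site. Capitals mark matches on either strand to GGCGCC, a GC-rich element bound by BMP Smads, to CAGACA, which holds the Smad-binding element, and to the E-boxes CAGCTG and CAGATG.
Id2 (chr12:25096093-25096342, minus strand): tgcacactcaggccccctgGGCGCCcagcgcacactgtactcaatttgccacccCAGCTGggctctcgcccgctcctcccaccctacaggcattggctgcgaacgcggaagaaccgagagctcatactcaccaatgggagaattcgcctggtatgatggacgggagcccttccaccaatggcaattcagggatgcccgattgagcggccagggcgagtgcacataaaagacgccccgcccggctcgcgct
Id3 (chr4:136143572-136143821, plus strand): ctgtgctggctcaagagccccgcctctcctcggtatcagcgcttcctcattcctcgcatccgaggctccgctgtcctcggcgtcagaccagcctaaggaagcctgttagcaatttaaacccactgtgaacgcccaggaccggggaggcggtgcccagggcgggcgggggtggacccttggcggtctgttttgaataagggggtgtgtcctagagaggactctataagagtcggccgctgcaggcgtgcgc
Id4 (chr13:48260866-48261115, plus strand): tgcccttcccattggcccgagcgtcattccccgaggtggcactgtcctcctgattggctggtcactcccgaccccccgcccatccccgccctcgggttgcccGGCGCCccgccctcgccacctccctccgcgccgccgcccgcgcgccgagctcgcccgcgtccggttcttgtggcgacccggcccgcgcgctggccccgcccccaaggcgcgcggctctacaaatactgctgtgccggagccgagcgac
Msx1 (chr5:37824586-37824835, minus strand): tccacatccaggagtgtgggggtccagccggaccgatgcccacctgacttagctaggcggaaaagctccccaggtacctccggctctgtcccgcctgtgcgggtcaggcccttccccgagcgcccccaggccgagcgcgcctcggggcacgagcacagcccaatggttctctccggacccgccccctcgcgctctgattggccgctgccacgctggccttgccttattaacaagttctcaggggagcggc
Msx2 (chr13:53472781-53473030, minus strand): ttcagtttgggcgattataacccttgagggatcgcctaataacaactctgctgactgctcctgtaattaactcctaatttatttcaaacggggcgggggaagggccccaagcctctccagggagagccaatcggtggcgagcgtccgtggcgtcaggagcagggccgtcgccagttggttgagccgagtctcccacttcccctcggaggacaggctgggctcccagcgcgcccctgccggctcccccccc

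The *Id2* window held GGCGCC at 231 bases and CAGCTG at 196 bases before the start, and the *Id4* window held GGCGCC at 148 bases before the start. No match to any of the 4 motifs was present in the windows of *Id3*, *Msx1* and *Msx2*. Of the 7 called members with a window, these 2 were the only ones with a match. Among all 32851 windows of the same length, 9.59% held GGCGCC, 17.1% held CAGACA, 13% held CAGCTG and 14.4% held CAGATG. The share of all windows with a match to any of the 4 was not computed, so the 2 of 7 has no background beside it. The windows printed held 18 CpG dinucleotides in *Id2*, 18 in *Id3*, 35 in *Id4*, 20 in *Msx1* and 16 in *Msx2*. Over all windows the median was 6 and the 95th percentile 31, so that all lay above the median and only *Id4* above the 95th percentile. 

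Of the ligands, 1 was called lower and 1 higher. *Gdf10* (gene ID 14560, chromosome 14 from 33923587 to 33936514), a BMP3-related secreted ligand, was at 10.5 and 11.1 RPKM in control libraries and at 5.93 and 6.12 RPKM in mutant libraries. The genotypes were clearly separated, and the libraries of each lay close together. With means of 10.8 ± 0.401 and 6.03 ± 0.132 RPKM, *Gdf10* was 1.79-fold lower, a log2 fold change of -0.83 (SE 0.0673, adjusted p = 0.000527). It was the member with the greatest fall among those tested. *Gdf11*, a ligand known to regulate the timing of neurogenesis in the spinal cord, was the other GDF ligand tested and was at 24.1 and 25.3 RPKM against 22.6 and 25.6 RPKM, with overlapping groups and a log2 fold change of -0.04 (adjusted p = 0.729).

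*Inhbb* (gene ID 16324, chromosome 1 from 119415463 to 119422248), which encodes the activin beta B subunit, was at 0.690 and 0.834 RPKM in control libraries and at 1.36 and 1.56 RPKM in mutant libraries. The groups did not overlap, and the gene entered the test only through its level in mutant cells. Its log2 fold change was 0.86 (SE 0.226, adjusted p = 0.0426), from 0.762 ± 0.101 to 1.46 ± 0.145 RPKM. The call was lost without the first control library (adjusted p = 0.1), without the first mutant library (adjusted p = 0.0978) and without the second mutant library (adjusted p = 0.191). *Tgfb3*, a TGF-beta ligand, had a log2 fold change of 0.25 (adjusted p = 0.291), and *Bmp1*, which despite its name is a protease that cleaves Chordin, one of 0.17 (adjusted p = 0.0602, and 0.0271 by voom).

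None of the 10 BMP ligand genes reached 1 RPKM in either genotype, and their summed level was 2.25 and 1.87 RPKM in control and 1.59 and 1.39 RPKM in mutant libraries. In all, 31 members were not tested on the RPKM scale. Of these, *Gdf1*, *Gdf2* and *Bmp10* were at 0 in every library, and 9 including them had at most 3 reads in any library. A second test of reads recovered from the RPKM values, chosen after the data were seen, took in the 16 of them with at least 20 reads over the 4 libraries. By limma voom 4 of the 16 were called, beside 7.13% of the 14254 genes in that test. Of the 4, *Bmper* was higher and *Bmp7*, *Grem1* and *Bmp3* were lower, where 3.87% of all genes were called higher and 3.26% lower. In control and then mutant libraries, *Grem1* had 22, 34, 4 and 4 reads and *Bmp3* 4, 12, 4 and 0. Both reached the minimum mainly through the control libraries, so a fall is what the filter would let through.

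*Bmp7*, a BMP ligand of roof plate and other tissues, was at 0.965 and 0.729 RPKM in control libraries and at 0.318 and 0.398 RPKM in mutant libraries, from 41, 49, 19 and 20 reads. Both mutant libraries were lower, with a log2 fold change of -1.18 (SE 0.292, adjusted p = 0.005). *Grem1*, which encodes the BMP antagonist Gremlin, was at 0.580 and 0.566 RPKM against 0.0751 and 0.0892 RPKM. Low in control cells already, it was 6.98-fold lower in mutant cells by mean RPKM, and its log2 fold change was -2.67 (SE 0.446, adjusted p = 0.00014). *Bmper*, which encodes a secreted BMP-binding protein, was at 0.409 and 0.373 RPKM against 0.776 and 0.845 RPKM, and its log2 fold change was 1.04 (SE 0.269, adjusted p = 0.00685). For the ligand gene *Bmp3*, with no more than 0.105 RPKM in any library, the log2 fold change was -2.42 (SE 0.745, adjusted p = 0.0219). Its reads are known only up to a whole factor, and any smaller factor would put it under the minimum of 20 reads. The adjusted p of *Grem1* also depends on such a factor. *Bmp4* had 0.433 and 0.219 RPKM against 0.0925 and 0.110 RPKM and did not pass (log2 fold change -1.39, adjusted p = 0.0832), nor did *Bmp6* with 0.466 and 0.566 RPKM against 0.995 and 0.789 RPKM (log2 fold change 0.76, adjusted p = 0.0832). The ligand *Gdf7*, a roof plate marker, did not exceed 0.176 RPKM.

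**Figure D2:**
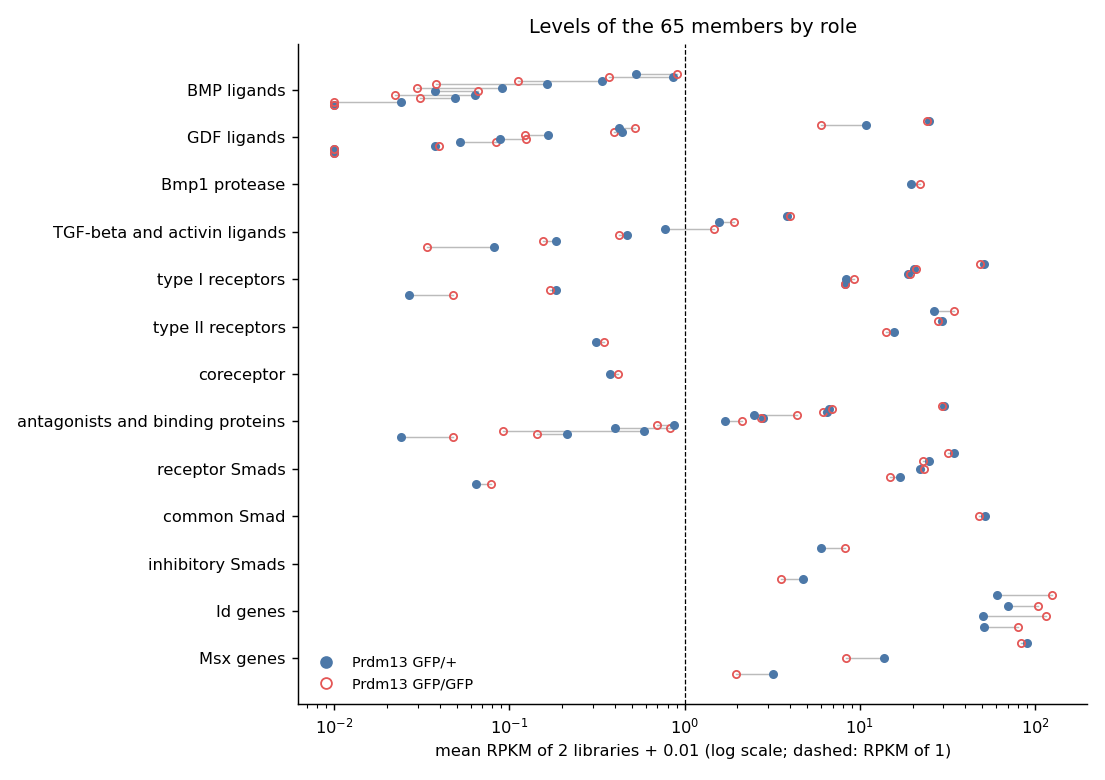
Mean RPKM of the 2 libraries of each genotype plus 0.01, on a log scale, for the 65 members arranged by role, with filled points for *Prdm13GFP/+*, open points for *Prdm13GFP/GFP* and a dashed line at 1 RPKM. The *Id* genes all lie well above the line with the mutant points to the right, and the 10 BMP ligands all lie below it.

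Of the 19 receptors and Smads, the 15 tested were expressed at moderate to high levels and differed by less than 1.5-fold between genotypes. The TGF-beta type II receptor *Tgfbr2*, at means of 0.301 and 0.335 RPKM, stayed under 1 RPKM in every library. So did *Acvrl1*, *Acvr1c* and *Smad9*. Summed over the 7 type I receptors, which phosphorylate the receptor Smads, the level was 108 and 106 RPKM in control and 107.5 and 105 RPKM in mutant libraries. *Tgfbr1*, the TGF-beta type I receptor and the most abundant of them, had a log2 fold change of -0.09 (adjusted p = 0.278). For the BMP type I receptors *Bmpr1a* and *Bmpr1b* the values were 0.03 and 0.00. Of the type II receptors, which activate type I receptors, the activin receptor *Acvr2a* was at 26.1 and 26.7 RPKM in control and at 34.98 and 33.7 RPKM in mutant libraries. Both mutant libraries were higher, by 1.30-fold, so that *Acvr2a* passed the adjusted p (log2 fold change 0.38, SE 0.0510, adjusted p = 0.00431) but not the fold limit.

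Of the Smads only *Smad7*, an inhibitory Smad that is itself induced by the pathway, passed the adjusted p on the RPKM scale, and it too stayed under the fold limit. It was at 5.55 and 6.45 RPKM in control and at 7.85 and 8.53 RPKM in mutant libraries, without overlap (log2 fold change 0.45, SE 0.0945, adjusted p = 0.0214). The other inhibitory Smad, *Smad6*, had the lowest log2 fold change of the 23 tested members that did not pass, -0.41 (adjusted p = 0.133), and by limma voom on reads its adjusted p was 0.0188. *Smad2*, a receptor Smad of TGF-beta and activin, was at 17.0 and 17.0 RPKM against 15.3 and 14.3 RPKM, with a log2 fold change of -0.20 (adjusted p = 0.0630), and by voom its adjusted p was 0.00825. For the summed receptor Smads the level was 97.6 and 98.7 RPKM in control and 94.2 and 91.2 RPKM in mutant libraries. *Smad4*, the common partner of all receptor Smads, had a log2 fold change of -0.10 (adjusted p = 0.180). With *Acvr2a* and *Smad7*, 11 tested members passed the adjusted p (19.7% of all genes tested did), 8 as higher beside 9.76% of all genes tested and 3 as lower beside 9.95%.

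Among the antagonists, *Fst* was called higher. *Fst* (gene ID 14313, chromosome 13 from 114452262 to 114458989) encodes Follistatin, which binds activins and some BMPs. It was at 2.87 and 2.08 RPKM in control libraries and at 4.71 and 4.04 RPKM in mutant libraries. The mutant libraries were both higher, although the control libraries differed between themselves by more than those of most genes. The means were 2.47 ± 0.559 and 4.37 ± 0.474 RPKM, with a log2 fold change of 0.81 (SE 0.167, adjusted p = 0.0194). This call was lost without the second control library (adjusted p = 0.0625), the first mutant library (adjusted p = 0.109) or the second mutant library (adjusted p = 0.0685). *Nog*, encoding Noggin, and *Chrd*, encoding Chordin, had log2 fold changes of -0.03 and -0.09 and did not pass. Summed over the 11 antagonists and binding proteins, the level was 53.0 and 51.9 RPKM in control and 53.7 and 53.1 RPKM in mutant libraries.

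**Figure D3:**
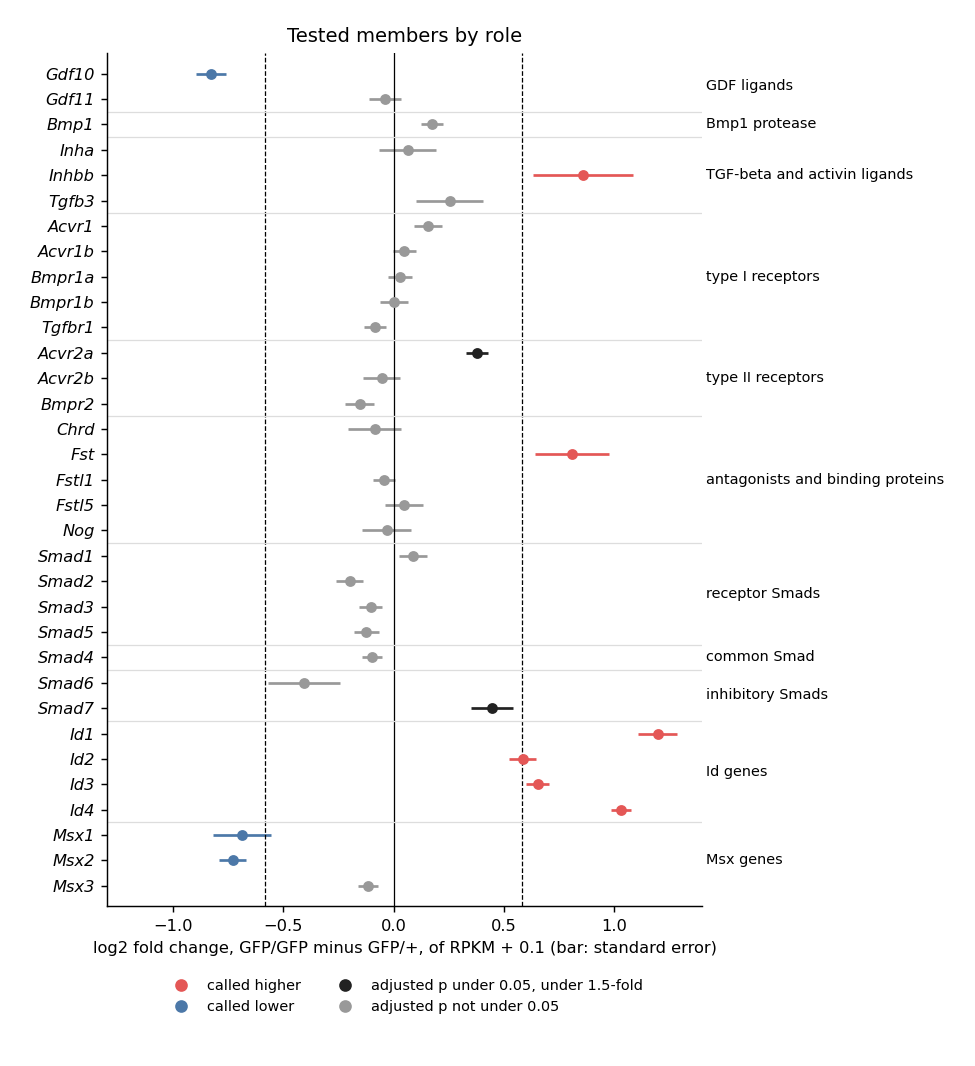
Log2 fold change (*Prdm13GFP/GFP* minus *Prdm13GFP/+*) with its standard error for the tested members in order of role, except 1 that was not called and is not shown, with dashed lines at a fold change of 1.5. The *Id* genes lie on the right and *Msx1*, *Msx2* and *Gdf10* on the left, while receptors and Smads lie between the dashed lines.

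Of 37 other genes of the pathway, 21 were tested, and by limma none was called higher and 1 lower. At an unadjusted p under 0.05, 7 were higher and 3 lower, and voom on reads called none higher and 2 lower (*Ltbp1* and *Tll1*). The gene called lower was *Ltbp1*, whose product binds latent TGF-beta, at 2.05 and 2.49 RPKM against 1.47 and 1.35 RPKM (log2 fold change -0.64, adjusted p = 0.0383). Under the adjusted p alone 5 were higher and 3 lower. Those higher were *Zfp423*, a zinc finger partner of Smads, with a log2 fold change of 0.49 (adjusted p = 0.00329), *Tgif2* with 0.42, *Pmepa1* with 0.41, *Rgma* with 0.40 and *Neo1* with 0.23. Those lower were *Ltbp1*, *Rgmb* with -0.28, and *Skil* with -0.18. The median over the 21 was 0.01, the same to 2 decimals as over all genes tested.

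Markers of other cells that a sort could carry along were measured beside the members. Of 10 endothelial markers 3 were tested and none was called by limma (1 had an unadjusted p under 0.05, and *Esam* was called lower by voom), with summed levels from 6.69 to 8.23 RPKM in control and from 6.85 to 7.41 RPKM in mutant libraries. Of 6 erythroid markers 3 were tested and none was called by limma or voom, nor had any an unadjusted p under 0.05. The sums were 47.2 to 49.7 RPKM over the 4 libraries, and *Hba-a1* was at 0 in all of them. Of 8 mesenchymal markers 1 was tested by limma and was not called, its unadjusted p being above 0.05, while voom on reads called *Pdgfra* lower. The sums were 5.22 and 5.55 RPKM in control and 4.26 and 4.18 RPKM in mutant libraries. Of 5 neural crest and glia markers 2 were tested, of which *Foxd3*, also a gene of dorsal interneurons, was called lower, and the sums were 12.2 and 15.2 RPKM against 6.93 and 7.31 RPKM. Their part in the values of the members was not tested.

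**Figure D4:**
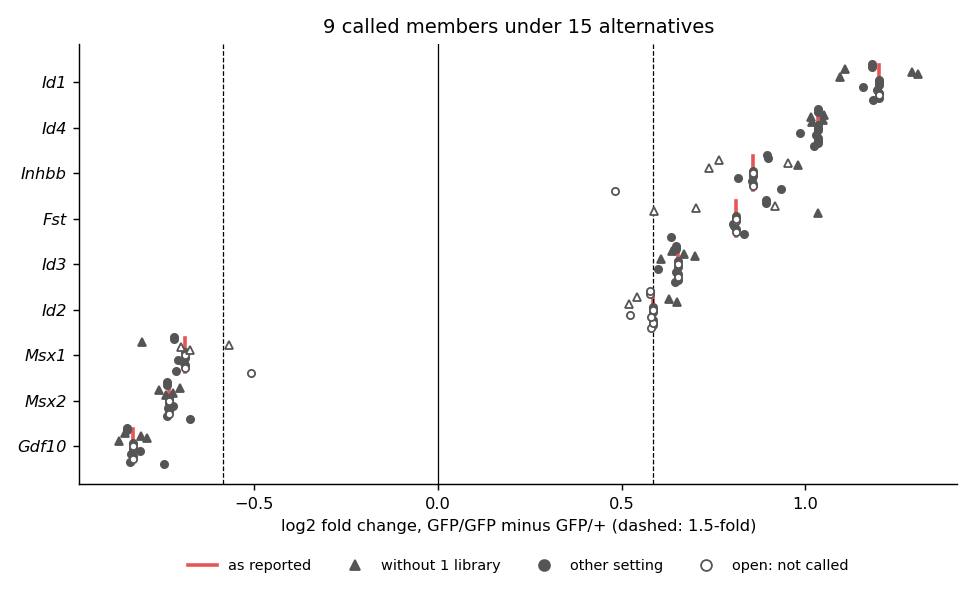
Log2 fold change of the 9 called members as reported (vertical line) and under 15 alternatives, with triangles for fits without 1 library, circles for other settings and open symbols where the gene was no longer called. *Id4* was called under all 15, *Id1* under 14, and *Gdf10*, *Id3* and *Msx2* under 13, and no symbol lies on the other side of 0 from its line.

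*Id4* was called in all 15 alternatives and *Id1* in 14, the exception being the fit without a filter on low values. *Gdf10*, *Id3* and *Msx2* were called in 13, and *Fst*, *Inhbb* and *Msx1* in 9. The direction of all 9 called members was the same in every alternative run.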

How the data were processed

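Per the methods of the study, mRNA of GFP+ cells was sequenced from 2 libraries per genotype, made from 1 pool each. The authors aligned reads to the mouse genome (mm10), counted them over the exons of each gene with featureCounts, scaled the counts by TMM factors and deposited RPKM values. The submitters' processing notes name CASAVA, TopHat2 2.1.0 and edgeR 3.6.8. RPKM divides by length, so levels of genes may be set side by side, and values of low genes rest on few reads.

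Here log2(RPKM + 0.1) was tested in R 4.3.3 with limma 3.58.1 (lmFit, eBayes with a trend) over genes with a mean of at least 1 RPKM in either genotype, with Benjamini-Hochberg adjustment over 12046 genes. Fold changes in log2 are on that scale, which understates the change of low genes, except those given for members under the filter (*Bmp7*, *Grem1*, *Bmper*, *Bmp3*, *Bmp4*, *Bmp6*), which are from voom on reads. A call needed a change of at least 1.5-fold besides an adjusted p below 0.05. With 2 libraries against 2, the smallest two-sided exact permutation p for a single gene is 0.333, so no such test was used.

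Whole reads were recovered from the steps of the RPKM values, to within 0.02 of a read, for 99.8% of the 19200 genes above 0. That share counts genes for which some gene length fitted. Of the 18408 with an annotated length as guide, the fitted length was within 5% of it for 66.2%. For some genes, *Id4*, *Grem1* and *Bmp3* among them, the reads are known only up to a whole factor. limma voom was run on the recovered reads. The limma fit of RPKM values and the recovery of reads were each tested on simulated data, and voom was not. Gene IDs and symbols are those of the table, with coordinates from the RefSeq annotation of GRCm38. Lists of other pathway genes and of cell type markers were fixed by hand. Members and lists were chosen with earlier results of these data known. Named members are those called or past the adjusted p, and examples of each role. Alternatives were other pseudocounts, filters, scalings and variance models, a minimum fold within the test (limma treat), a replicate block, voom and leaving out each library. The result for 1 member that was not called is not reported here.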

Additional observations from a re-analysis of the deposited data

How the results depend on the processing

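Without a filter on low values limma called 30 genes higher and 14 lower, with 1 member higher and 0 lower, and *Prdm13* kept a log2 fold change of 1.4 (adjusted p = 0.0619). With the fold of 1.5 tested in the model (limma treat), 131 genes were called higher and 77 lower, with 2 members higher and 0 lower. The cause was not tested. By limma voom on genes with at least 20 reads, added after the data were seen, 6 members were called lower, more members being tested. Of these, *Grem1* and *Bmp3* reached the minimum of reads mainly through the control libraries. Leaving out 1 library at a time gave 285 to 490 genes called higher and 240 to 298 lower, with 3 to 5 members higher, fewest without the second *Prdm13GFP/GFP* library, and 2 to 3 lower. The median log2 fold change of the *Msx* genes was -0.51 with a pseudocount of 1, and -0.70 to -0.57 without 1 library. That of the *Id* genes was 0.79 after quantile normalization, and 0.81 to 0.87 without 1 library.

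Directions that reversed were those of members near 0. *Bmpr1b* was at -0.0017 with median ratio scaling. Without 1 library the log2 fold changes ran from -0.090 to 0.22 for *Inha*, from -0.0056 to 0.065 for *Bmpr1a*, from -0.023 to 0.029 for *Bmpr1b*, from -0.17 to 0.063 for *Acvr2b*, from -0.13 to 0.049 for *Gdf11*, from -0.25 to 0.082 for *Chrd*, from -0.037 to 0.13 for *Fstl5* and from -0.079 to 0.019 for *Nog*. Deviations of same-numbered libraries correlated at 0.05 across genes, so the numbers are not taken as pairs. With a replicate block 459 genes were called higher and 342 lower, and no call of a member changed. The numbers of reads limit what can be said of members under 1 RPKM.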
